A study of Homo sapiens with 6 samples.

Results

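The genes described here are neighbours on the short arm of chromosome 9, taken in the order of their starts in the RefSeq table of assembly GRCh38.p14, from the forkhead gene FOXD4 to the nucleolar gene NOL6. A gene belonged to the group if a probe set annotated to 1 symbol measured it and the brightest such probe set had a mean of at least 5 on the log2 scale over the 6 arrays. JAK2 and AQP3 were left out by the same rule. Of 444 RefSeq genes in the stretch, 124 had such a probe set, 70 of these lay under log2 5, and 53 genes, all protein coding, formed the group out of 12317 genes tested on the arrays. The stretch was selected on the measured spiky minus cystic differences of its genes, so every spiky minus cystic value below is a description of what was chosen and carries no test.

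HCA-7 is a human colorectal cancer cell line that forms colonies of 2 shapes in type 1 collagen. The spiky clone sc1 and the cystic clone cc3 were each grown in 3D collagen, and total RNA of the layer that held the cells was hybridised to Affymetrix U133 Plus 2.0 arrays at day 5, 10 and 15, with 1 array per clone and day. Each shape is represented by 1 clone, so colony shape and clone cannot be told apart, and no agent or engineered allele is named in the labels. The labels do not say whether the 3 days of a clone came from separate cultures, so SDs over the 3 days hold culture time as well as error.

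The short arm of chromosome 9 carries genes of unrelated function that share only their position, among them the cell cycle inhibitors CDKN2A and CDKN2B, the type I interferon cluster and CD274, which encodes the checkpoint ligand PD-L1. The CDKN2A region is a frequent site of deletion in many tumours, often together with the neighbouring gene MTAP. All values here are RNA levels, and DNA was not analysed. Fewer cells of a type and less RNA per cell cannot be told apart in bulk RNA.

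To show the start regions of genes that lay at both ends of the spiky minus cystic differences, the promoters of the 2 highest and the 2 lowest members by measured difference, among those with exactly 1 RefSeq promoter entry, are printed from 250 bases before to 50 after the gene's start, 5′ to 3′ on the gene's own strand, in RefSeq assembly GRCh38.p14. They are MPDZ (chr9:13279643-13279942, minus strand), KDM4C (chr9:6757723-6758022, plus strand), RIGI (chr9:32526147-32526446, minus strand) and TOPORS (chr9:32552537-32552836, minus strand). Capitals mark matches, on either strand, to the GC box GGGCGG and to CCAAT.
MPDZ: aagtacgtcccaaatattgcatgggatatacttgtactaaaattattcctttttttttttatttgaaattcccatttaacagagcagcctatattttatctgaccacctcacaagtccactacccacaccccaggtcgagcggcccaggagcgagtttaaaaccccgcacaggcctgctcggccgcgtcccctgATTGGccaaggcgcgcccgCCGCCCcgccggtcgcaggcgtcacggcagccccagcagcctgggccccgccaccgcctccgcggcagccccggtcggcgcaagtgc
KDM4C: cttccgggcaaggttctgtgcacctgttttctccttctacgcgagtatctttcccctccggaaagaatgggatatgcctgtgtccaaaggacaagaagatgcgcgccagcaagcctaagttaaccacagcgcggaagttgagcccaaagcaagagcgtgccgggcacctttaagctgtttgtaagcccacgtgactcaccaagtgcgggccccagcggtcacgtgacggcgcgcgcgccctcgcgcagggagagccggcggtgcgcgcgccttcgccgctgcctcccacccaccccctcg
RIGI: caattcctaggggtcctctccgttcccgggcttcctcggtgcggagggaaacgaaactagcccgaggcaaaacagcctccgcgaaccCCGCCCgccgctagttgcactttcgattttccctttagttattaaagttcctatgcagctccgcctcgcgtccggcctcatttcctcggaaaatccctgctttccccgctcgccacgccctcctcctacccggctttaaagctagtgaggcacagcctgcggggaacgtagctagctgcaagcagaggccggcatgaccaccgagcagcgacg
TOPORS: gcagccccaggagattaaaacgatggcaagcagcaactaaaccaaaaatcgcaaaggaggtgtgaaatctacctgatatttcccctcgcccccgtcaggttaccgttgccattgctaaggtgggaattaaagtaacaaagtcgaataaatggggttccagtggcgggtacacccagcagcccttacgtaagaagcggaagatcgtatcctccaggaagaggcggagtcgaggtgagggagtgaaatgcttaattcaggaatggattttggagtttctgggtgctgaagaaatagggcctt
MPDZ held 1 GC box and 1 CCAAT match, RIGI held 1 GC box match, and the other two windows held neither. RefSeq promoters were at hand for 48 of the 53 members, with 77 entries in all. The GC box was in 67.5% of the members' entries, against 65.4% of the 14454 promoters of tested genes and 45% of all 35116 promoters. CCAAT was in 27.3% of the members' entries, against 34.8% and 34.6%, and TATAAA was in 9.09%, against 6.51% and 11.5%. Each motif was searched on both strands and counted on its own, and neighbouring matches can share letters. The median GC content of the members' entries was 60.3%, against 64.7% for promoters of tested genes. A match describes letters in these windows and is not a binding site.

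The 6 arrays had medians between 5.18 and 5.34, and arrays carry no read depth, so their number limits the precision. Of 12 markers of colorectal epithelium, 6 had a mean of at least log2 5 (KRT8, KRT18, KRT19, EPCAM, CDH1 and VIL1), while CDX1, CDX2, CDH17, GPA33, LGALS4 and KRT20 lay under it, and the list averaged 6.94 to 7.18 on spiky and 7.03 to 7.38 on cystic arrays. The lists for fibroblasts (2 of 10 markers at or over log2 5), endothelium (1 of 6) and leukocytes (4 of 9) averaged between 4.05 and 4.84 on spiky arrays and between 4.08 and 5.03 on cystic arrays. Single markers of these lists differed more, among them LYZ (8.44 in spiky, 9.79 in cystic), CSF1R (5.17 in spiky, 6.10 in cystic) and the epithelial marker VIL1 (6.92 in spiky, 7.60 in cystic), while the defining leukocyte gene PTPRC had a mean of 2.95. The 3′ minus 5′ signal difference of control genes, on the log2 scale, is a measure of RNA integrity. For ACTB it ran from 2.73 to 3.10 on spiky arrays and from 2.83 to 3.28 on cystic arrays. For GAPDH it ran from 0.49 to 0.63 on spiky arrays and from 0.63 to 0.79 on cystic arrays. The part of these values in the results was not tested.

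Along the chromosome the spiky minus cystic difference changed sign once. All 40 members from FOXD4 to C9orf72 had a positive mean difference over the 3 days, and all 13 members from ACO1 to NOL6 had a negative one. The median difference was 0.91 (1.88-fold) over the 40 and -0.40 (1.32-fold lower) over the 13, beside -0.03 over all tested genes. The split between C9orf72 and ACO1 was placed after the values were seen. Between these genes lie 39 RefSeq genes of any kind, and the 3 with a probe set of their own were dim, so no bright gene places the change of sign more closely.

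**Figure D1:**
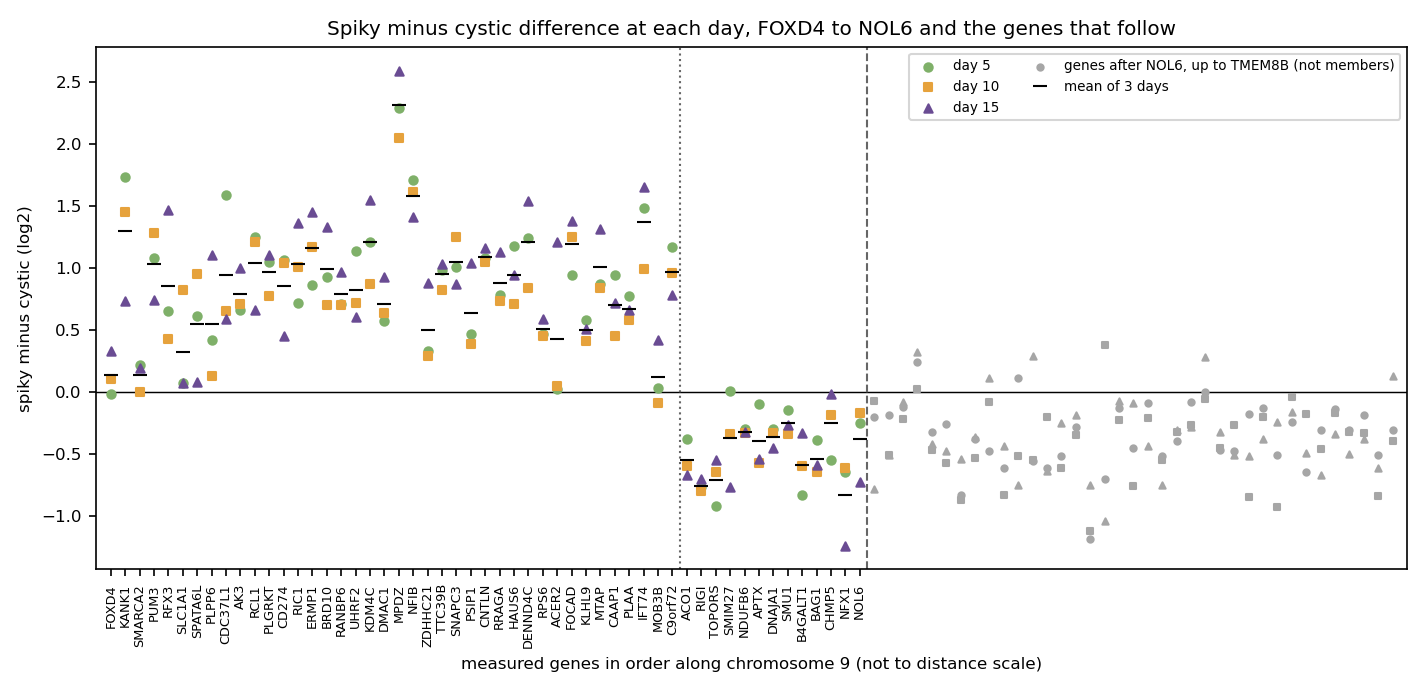
Spiky minus cystic differences on the log2 scale at day 5 (circles), 10 (squares) and 15 (triangles), with the mean of the 3 days as a bar, for the 53 members in chromosome order and, in grey, the 37 tested genes that follow up to TMEM8B; the dotted line separates C9orf72 from ACO1 and the dashed line NOL6 from the next gene. The 40 members left of the dotted line have measured mean differences from 0.12 to 2.31 (MPDZ, dim on the cystic arrays) and the 13 right of it from -0.83 to -0.25, and the grey genes go on at a median of -0.40.

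The order held at each day. From FOXD4 to C9orf72, 39 members were positive at day 5, 38 at day 10 and 40 at day 15, with medians of 0.90, 0.75 and 0.95. From ACO1 to NOL6, 12 were negative at day 5 and 13 at both later days, with medians of -0.38, -0.57 and -0.55. The members with mixed signs were FOXD4 (-0.02 at day 5), SMARCA2 (-0.00 at day 10), MOB3B (-0.09 at day 10) and SMIM27 (0.01 at day 5). Every other member kept 1 sign at all 3 days. With both day 15 arrays left out, a setting added after the data were seen, the difference shrank by over 1.5 times for RFX3 (0.54), ZDHHC21 (0.31), PLPP6 (0.27), FOXD4 (0.04), ACER2 (0.03), NOL6 (-0.21) and SMIM27 (-0.16), and it was -0.03 for MOB3B.

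By limma with day as a factor and a Benjamini-Hochberg adjusted p under 0.05, 31 members were called higher in spiky colonies, where 3.65% of all tested genes were, and 8 were called lower, where 7.74% were. All 31 lay from FOXD4 to C9orf72 and all 8 from ACO1 to NOL6. The contrast chose the members, so nothing is read from these counts. The count of 39 calls was 23 without the spiky day 5 array and 24 without the cystic day 5 array. In 31 of the 40 members every spiky array lay above every cystic array, and in 9 of the 13 every spiky array lay below, beside 5.5% and 10.1% of all tested genes.

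Lower values went on past the last member. The 37 tested genes after NOL6, up to TMEM8B, also had a median of -0.40, with 0 called higher and 11 lower. The 5 that follow NOL6 had differences of -0.35 (SUGT1P1), -0.40 (ANKRD18B), -0.14 (ANXA2P2), 0.19 (PRSS3) and -0.40 (UBE2R2). The 428 tested genes on chromosome 9 after TMEM8B had a median of -0.16, with 8 called higher and 89 lower. Of all tested genes, 3.65% were called higher and 7.74% lower. AQP3, the aquaporin left out by the rule, lay among the lower genes at 12.69, 12.46 and 13.06 on spiky arrays and 13.13, 13.36 and 13.58 on cystic arrays at day 5, 10 and 15. JAK2 had a mean of 4.58 and lay under the level required.

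**Figure D2:**
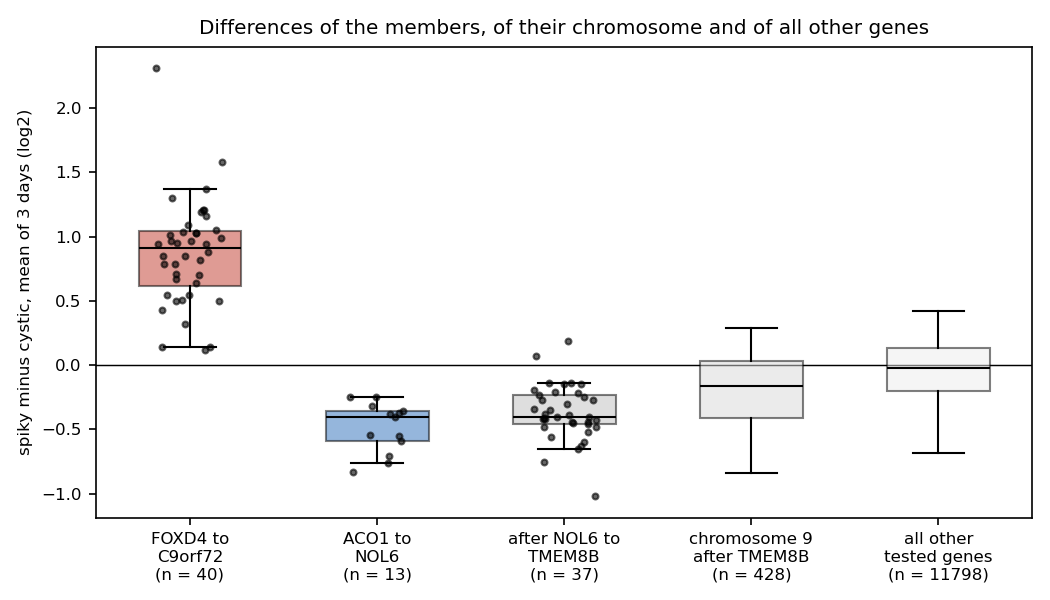
Spiky minus cystic difference on the log2 scale, mean of 3 days, for both stretches of members, the genes after NOL6 up to TMEM8B, the chromosome 9 genes after TMEM8B and all other tested genes; boxes span the quartiles with the median as a line, whiskers run from the 5th to the 95th percentile, and points are single genes. The medians are 0.91, -0.40, -0.40, -0.16 and close to 0, and the lowest of the 40 members from FOXD4 to C9orf72 lies at 0.12.

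The differences within FOXD4 to C9orf72 were of like size for many members. They lay between 0.5 and 1.5 in 31 of the 40, and 14 of the 40 were at least 2-fold higher in spiky colonies, beside 0.844% of all tested genes. The Pearson correlation between the difference and the gene's mean level was 0.03 across these 40 genes, which share the 6 arrays and are not independent. No chosen probe set from ACO1 to NOL6 was as much as 2-fold lower. A further probe set of SMU1 (value given below) was about 2-fold lower. A further probe set of RIGI had a measured difference of -1.01, but it lay under log2 5 on every spiky array, so no fold is given.

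Among genes of junctions, adhesion and membranes, all 3 members were higher in spiky colonies. MPDZ, a multi-PDZ scaffold of tight junctions, read 6.60, 5.68 and 6.37 on spiky arrays at day 5, 10 and 15, against 4.31, 3.63 and 3.78 on cystic arrays. It was dim on every cystic array and passed the level filter through its spiky arrays alone, so its measured difference of 2.31 is given as at least 2.32-fold, with each array under log2 5 set to 5. KANK1, a scaffold that links focal adhesions to cortical microtubules, read 7.36, 7.27 and 6.59 on spiky arrays, against 5.62, 5.82 and 5.86 on cystic arrays (2.47-fold higher). Its difference was 1.73, 1.45 and 0.73 at day 5, 10 and 15. A further KANK1 probe set (mean 6.19, against 6.42 for the chosen one) showed no such decline. It read 6.64, 6.35 and 6.74 on spiky arrays, against 5.75, 5.97 and 5.68 on cystic arrays. ERMP1, an endoplasmic reticulum metallopeptidase that is not itself a junction protein, averaged 9.45 ± 0.07 in spiky and 8.29 ± 0.23 in cystic colonies (SD over 3 days), 2.23-fold higher. The groups did not overlap in any of the 3. Every spiky array lay above every cystic one in 77.5% of members from FOXD4 to C9orf72 and in 5.5% of all tested genes.

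Genes of transcription and chromatin lay on both sides, with 8 of 10 members positive. NFIB, a transcription factor of the nuclear factor I family, read 10.66, 10.97 and 11.26 on spiky arrays at day 5, 10 and 15, against 8.95, 9.37 and 9.84 on cystic arrays (2.98-fold higher). Its lowest spiky value lay above its highest cystic value. KDM4C, a histone H3 lysine 9 demethylase, read 6.97, 6.47 and 7.13 on spiky arrays, against 5.76, 5.60 and 5.58 on cystic arrays (2.31-fold higher). SNAPC3, a subunit of the complex that starts small nuclear RNA transcription, read 8.74, 9.01 and 8.49 on spiky arrays, against 7.72, 7.76 and 7.62 on cystic arrays (2.06-fold higher). RFX3, a transcription factor of cilium genes, read 6.94, 7.05 and 8.30 on spiky arrays, against 6.30, 6.62 and 6.83 on cystic arrays. Its groups did not overlap, and its day 15 spiky array stood above all the others.

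UHRF2, a ubiquitin ligase that binds modified cytosine, and PSIP1, the chromatin tether LEDGF, had differences of 0.82 and 0.64. FOXD4 and SMARCA2, an ATPase of the SWI/SNF remodelling complex, were the least shifted, at 0.14 each, with overlapping groups. The other two members of the list were lower in spiky colonies. NFX1, which binds the X box of class II MHC promoters, read 9.09, 8.80 and 7.83 on spiky arrays, against 9.74, 9.40 and 9.07 on cystic arrays (1.78-fold lower), and its groups overlapped. TOPORS, a ubiquitin and SUMO ligase, read 6.91, 7.18 and 6.84 on spiky arrays, against 7.83, 7.83 and 7.39 on cystic arrays (1.63-fold lower), with no overlap.

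**Figure D3:**
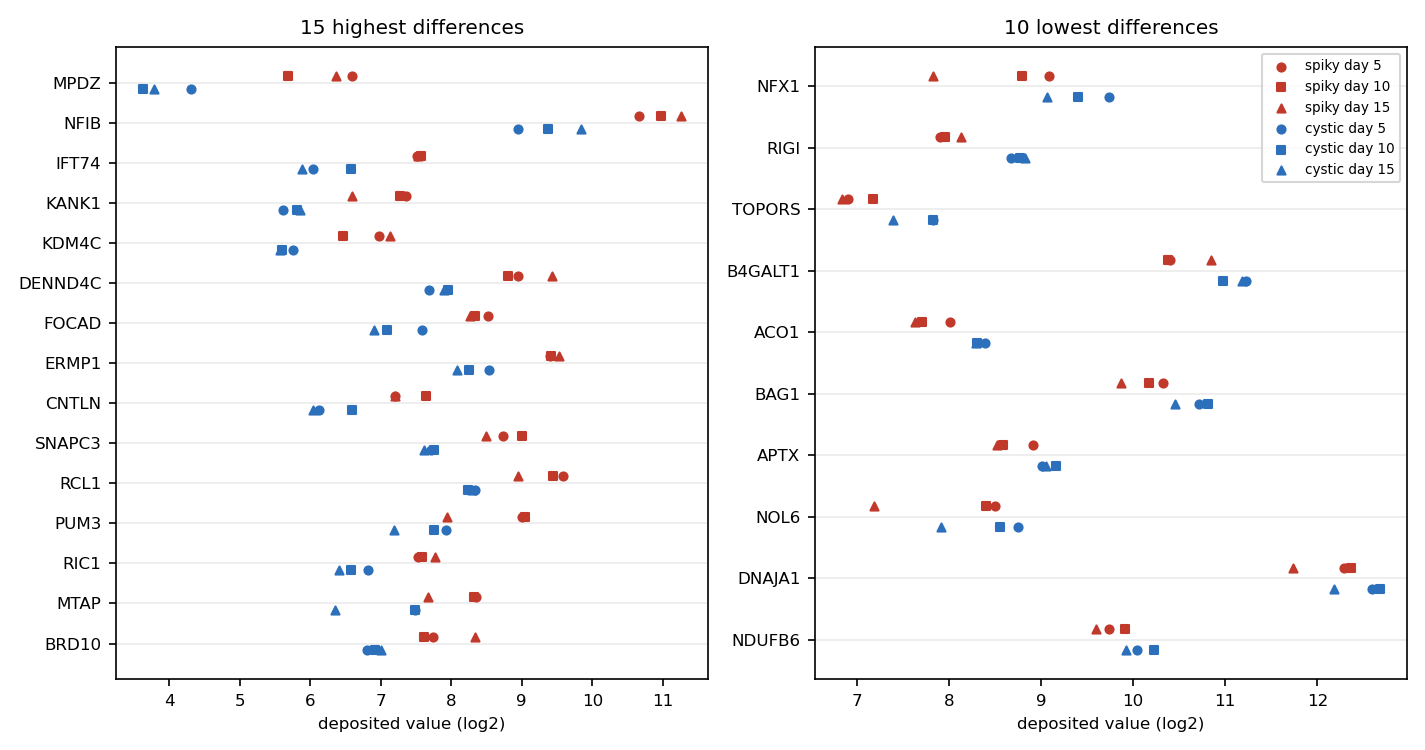
Deposited log2 values of the 15 members with the highest and the 10 with the lowest spiky minus cystic difference among members of 1 sign at all 3 days; each row is a gene, red marks are the spiky and blue marks the cystic arrays, and the mark's shape gives the day. In all 15 on the left every red mark lies right of every blue mark, from MPDZ (at least 2.32-fold) to BRD10 (1.99-fold), while on the right NFX1, NOL6 and DNAJA1 overlap.

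In RNA processing and the ribosome, 4 of 6 members were positive. FOCAD (focadhesin), linked to the SKI complex of RNA decay, read 8.52, 8.34 and 8.27 on spiky arrays at day 5, 10 and 15, against 7.58, 7.09 and 6.90 on cystic arrays (2.28-fold higher). RCL1, needed for processing of 18S ribosomal RNA, read 9.58, 9.45 and 8.95 on spiky arrays, against 8.34, 8.24 and 8.29 on cystic arrays (2.06-fold higher). PUM3, a nucleolar RNA-binding protein of the Pumilio family, averaged 8.66 ± 0.62 in spiky and 7.62 ± 0.38 in cystic colonies (SD over 3 days), 2.05-fold higher, with differences of 1.08, 1.28 and 0.74 over the days. All 3 had groups that did not overlap. Every spiky array lay above every cystic one in 77.5% of members from FOXD4 to C9orf72 and in 5.5% of all tested genes. RPS6, the ribosomal protein that S6 kinases phosphorylate and the brightest member, averaged 13.15 ± 0.07 in spiky and 12.64 ± 0.04 in cystic colonies (SD over 3 days), 1.42-fold higher. The splicing factor SMU1 (-0.25) and NOL6, a factor of small-subunit assembly (-0.38), were lower in spiky colonies. A further probe set of SMU1, nearly as bright (mean 9.70, against 9.71 for the chosen one), had a difference of -1.0.

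All 6 members of the cell cycle, centrosome and cilium list were positive. IFT74, a subunit of the intraflagellar transport machinery, read 7.51, 7.57 and 7.53 on spiky arrays at day 5, 10 and 15, against 6.04, 6.58 and 5.88 on cystic arrays (2.59-fold higher). CNTLN (centlein), a centriole protein, read 7.20, 7.64 and 7.20 on spiky arrays, against 6.12, 6.60 and 6.04 on cystic arrays (2.13-fold higher). Its difference was 1.08, 1.05 and 1.16 over the days. HAUS6, a subunit of the augmin complex that nucleates spindle microtubules, averaged 9.92 ± 0.29 in spiky and 8.97 ± 0.36 in cystic colonies (SD over 3 days), a difference of 0.94. Its chosen probe set ends in _s_at, and its only bright one without such an ending had a difference of 0.44. The importin relative RANBP6 (0.79), the apoptosis inhibitor CAAP1 (0.70) and KLHL9, an adaptor of a mitotic ubiquitin ligase (0.50), had smaller differences. In none of the 6 did the groups overlap. All 6 lie from FOXD4 to C9orf72, where every spiky array lay above every cystic one in 77.5% of members, beside 5.5% of all tested genes.

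The 2 immune members lay on opposite sides of the sign change. CD274 read 7.41, 6.81 and 6.25 on spiky arrays at day 5, 10 and 15, against 6.35, 5.77 and 5.80 on cystic arrays (1.80-fold higher). The spiky array was above the cystic one at each day, though the groups overlapped across days. RIGI, a cytosolic sensor of viral RNA, read 7.90, 7.96 and 8.13 on spiky arrays, against 8.67, 8.77 and 8.83 on cystic arrays (1.69-fold lower). These groups did not overlap, and the difference was -0.77, -0.80 and -0.70 over the days. A further probe set of RIGI, ending in _x_at (mean 7.89, against 8.37 for the chosen one), had a difference of -0.12. Its groups overlapped, and at day 15 it was higher on the spiky array (8.26 against 8.13). Another one (mean 5.08) had a measured difference of -1.01. It was dim on every spiky array (4.98, 4.63 and 4.12) and passed the level through its cystic arrays alone (5.75, 5.57 and 5.44).

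Of 10 metabolic members, 7 were positive. MTAP, which salvages methylthioadenosine and is a neighbour of CDKN2A, read 8.35, 8.32 and 7.67 on spiky arrays at day 5, 10 and 15, against 7.48, 7.48 and 6.35 on cystic arrays (2.01-fold higher). The plasminogen receptor PLGRKT (0.97), TTC39B (0.95) and the mitochondrial adenylate kinase AK3 (0.79) also had groups that did not overlap. PLPP6, a lipid phosphatase (0.55), the ceramidase ACER2 (0.43) and the glutamate transporter SLC1A1 (0.32) had the smallest positive differences of this list. On the lower side, B4GALT1, a Golgi galactosyltransferase, read 10.40, 10.38 and 10.85 on spiky arrays, against 11.23, 10.98 and 11.18 on cystic arrays (a difference of -0.59). ACO1, the cytosolic aconitase that doubles as an iron regulatory protein, read 8.01, 7.71 and 7.63 on spiky arrays, against 8.39, 8.31 and 8.30 on cystic arrays (1.46-fold lower). NDUFB6, a subunit of respiratory complex I, had a difference of -0.30, -0.33 and -0.32 over the days, the least variable of the named members. None of these 3 overlapped. Spiky arrays lay wholly above cystic ones in 77.5% of members from FOXD4 to C9orf72 and in 5.5% of all tested genes. They lay wholly below in 69.2% of members from ACO1 to NOL6 and in 10.1% of all tested genes.

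Of 8 members in trafficking and signalling, 7 were positive. DENND4C, which activates the small GTPase Rab10, read 8.94, 8.80 and 9.43 on spiky arrays at day 5, 10 and 15, against 7.69, 7.96 and 7.90 on cystic arrays (2.31-fold higher). RIC1, part of an activator of Rab6, read 7.53, 7.59 and 7.77 on spiky arrays, against 6.82, 6.58 and 6.41 on cystic arrays (2.04-fold higher). Its difference was 0.72, 1.01 and 1.36 over the days. C9orf72, whose repeat expansion causes amyotrophic lateral sclerosis, was the last positive member and read 6.52, 6.84 and 6.66 on spiky arrays, against 5.35, 5.88 and 5.88 on cystic arrays (1.96-fold higher). RRAGA, a Rag GTPase of mTORC1 signalling, was 1.84-fold higher, and these 4 had groups that did not overlap. With spiky arrays above, that held for 77.5% of members from FOXD4 to C9orf72 and for 5.5% of all tested genes. The other members of this list were SPATA6L (0.55), the palmitoyltransferase ZDHHC21 (0.50), MOB3B (0.12) and the ESCRT-III subunit CHMP5 (-0.25).

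Protein quality control and DNA repair held 2 positive and 3 negative members. CDC37L1, a co-chaperone of Hsp90, read 8.18, 7.53 and 6.97 on spiky arrays at day 5, 10 and 15, against 6.59, 6.88 and 6.38 on cystic arrays (1.92-fold higher). PLAA, a ubiquitin-binding protein, was 1.59-fold higher, with overlapping groups. BAG1, a nucleotide exchange factor of Hsp70, read 10.32, 10.17 and 9.87 on spiky arrays, against 10.71, 10.81 and 10.46 on cystic arrays (1.46-fold lower). The DNA end-processing enzyme APTX (-0.40) and the Hsp40 chaperone DNAJA1 (-0.36) were lower as well, and of these only DNAJA1 overlapped between the groups. Every spiky array lay below every cystic one in 69.2% of members from ACO1 to NOL6 and in 10.1% of all tested genes. Outside the role lists, the bromodomain gene BRD10 was 1.99-fold and DMAC1, an assembly factor of complex I, 1.64-fold higher, and SMIM27 had a difference of -0.37.

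Other probe sets of the same genes measured the same contrast on the same 6 arrays. Their positions were not checked, so they are not independent measurements. Of 70 further single-symbol probe sets with a mean of at least 5, in 36 members, 64 had the sign of the chosen one, and in 34 of the 36 members all did. NFIB had 6 others with differences from 1.23 to 1.62, and MTAP had 4 others, from 1.05 to 1.47. The level was required of the mean over both clones, so a probe set dim in 1 clone could pass through the other. The MTAP one at 1.47 read 4.62, 5.03 and 4.52 on cystic arrays at day 5, 10 and 15, and one of PLAA (0.90) read 4.70, 4.70 and 4.54. For such probe sets the filter favours a difference, so the shared signs are a description. The exceptions were SMARCA2, with 5 of 6 others negative (-0.56 to 0.02), and B4GALT1, with 1 of 5 positive (0.17). The mean of all bright probe sets of SMARCA2 gave -0.24, that of SMU1 -0.62 and that of NFX1 -0.47. Without probe sets ending in _x_at or _s_at, ACO1 was at -0.32 and KLHL9 at 0.83. FOXD4 has close relatives elsewhere in the genome, and whether its probe set also detects them was not tested.

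**Figure D4:**
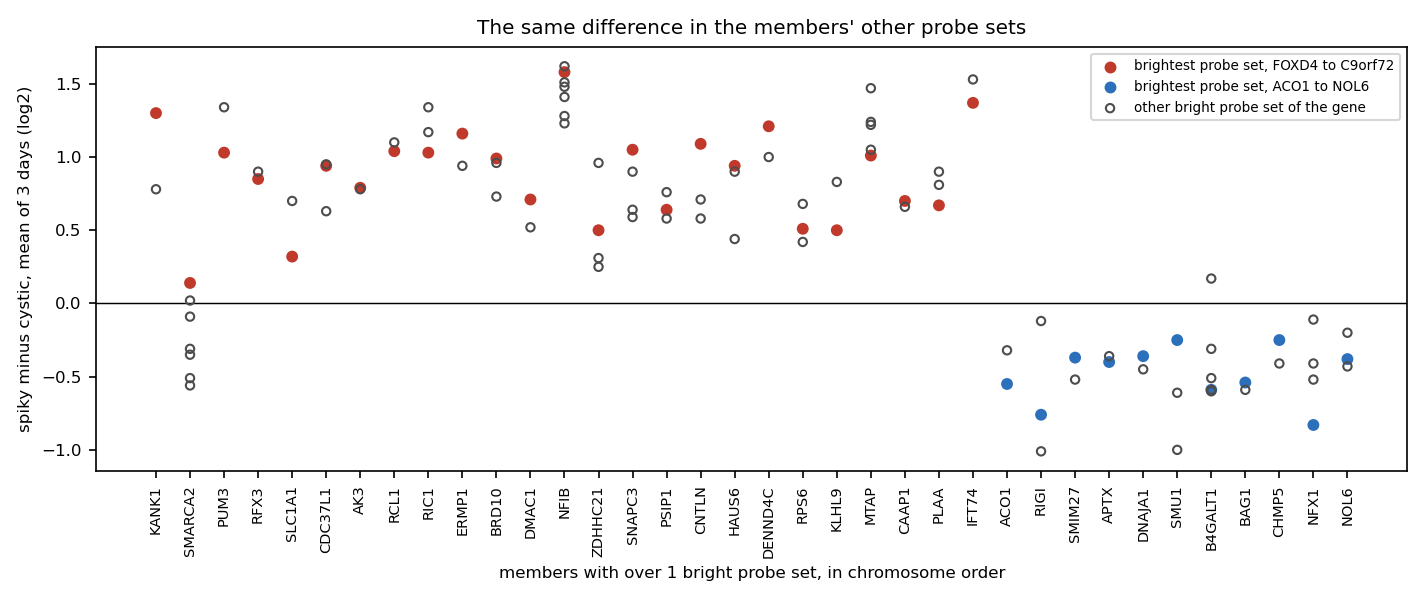
Spiky minus cystic difference on the log2 scale, mean of 3 days, of the chosen brightest probe set (filled, red from FOXD4 to C9orf72 and blue from ACO1 to NOL6) and of every other bright probe set (open) of the 36 members with over 1. Of 70 open circles 64 lie on the same side of 0 as the filled one; those of SMARCA2, with 5 of 6 below 0, are the main exception.

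At the level filter, the members just inside were MPDZ (mean 5.06), MOB3B (5.08) and ACER2 (5.21), and the genes just outside were CDKN2B (4.99), GLIS3-AS1 (4.87) and ADAMTSL1 (4.76). CDKN2B read 5.61, 4.65 and 4.82 on spiky arrays at day 5, 10 and 15, against 5.20, 4.79 and 4.88 on cystic arrays, and these groups overlapped. ADAMTSL1 lay between 4.61 and 5.02 on spiky arrays and between 4.65 and 4.89 on cystic arrays.

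Change over culture time was not used to choose the members and was tested with colony shape in the model. From day 5 to day 15, 2 of 53 members rose and 10 fell by limma, shares no higher than the background, since 10.4% of all tested genes rose and 21.9% fell. The median day 15 minus day 5 difference was -0.17 over the members and -0.11 over all tested genes. The count of 12 was 2 without the spiky day 5 array, 6 without the cystic day 5 array, 18 without the cystic day 15 array and 0 with colony shape left out of the model. With day as a number it was 7. With arrays centred on their median, which moved the median of all tested genes to 0.02, 2 members rose, 9 fell and the members' median was -0.05.

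NFIB and RFX3 were the members that rose. NFIB averaged 10.55 at day 15 and 9.80 at day 5 over both clones, a difference of 0.75 ± 0.11 (SE) with an adjusted p of 0.00193 by limma, and it went up in both clones (0.60 in spiky, 0.89 in cystic). RFX3 averaged 7.57 at day 15 and 6.62 at day 5, a difference of 0.95 ± 0.26 (adjusted p = 0.0226 by limma), with 1.36 in spiky and 0.54 in cystic colonies. NFIB lost its call under 1 of 15 alternatives (colony shape left out), and RFX3 under 6 of 15, with a difference of 0.48 without the spiky day 15 array. RFX3 also lost it without either day 5 array, with a variance prior without trend, with day as a number and with colony shape left out. BRD10, DENND4C, C9orf72 and TTC39B had the next highest differences of 1 sign in both clones and did not pass.

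NOL6 and NFX1 had the lowest values of the 10 that fell. NOL6 averaged 7.55 at day 15 and 8.63 at day 5, a fitted difference of -1.08 ± 0.18 (adjusted p = 0.00301 by limma), with -1.31 in spiky and -0.84 in cystic colonies. NFX1 had a difference of -0.97 ± 0.17 (adjusted p = 0.00395). Both belong to the stretch that was lower in spiky colonies, as do DNAJA1 (-0.49 ± 0.07, adjusted p = 0.00133) and BAG1 (-0.34 ± 0.11, adjusted p = 0.0358). BAG1 lost its call under 11 of 15 alternatives, among them centring (-0.22), cyclic loess (-0.16) and leaving out any array other than that of cystic day 15. From FOXD4 to C9orf72, ZDHHC21 (-0.94), MTAP (-0.90), PUM3 (-0.89), CD274 (-0.85), PLAA (-0.74) and DMAC1 (-0.58) fell, with adjusted p between 0.00594 and 0.0207 by limma. With the mean of all bright probe sets DMAC1 was at 0.01, ZDHHC21 at -0.07, MTAP at -0.50 and NFX1 at -0.53. In 36 of the 53 members, and in 9302 of the 12317 tested genes, the change had the same sign in both clones, and the correlation of the change between clones was 0.55 across members and 0.71 across all tested genes, a description of genes that share arrays.

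**Figure D5:**
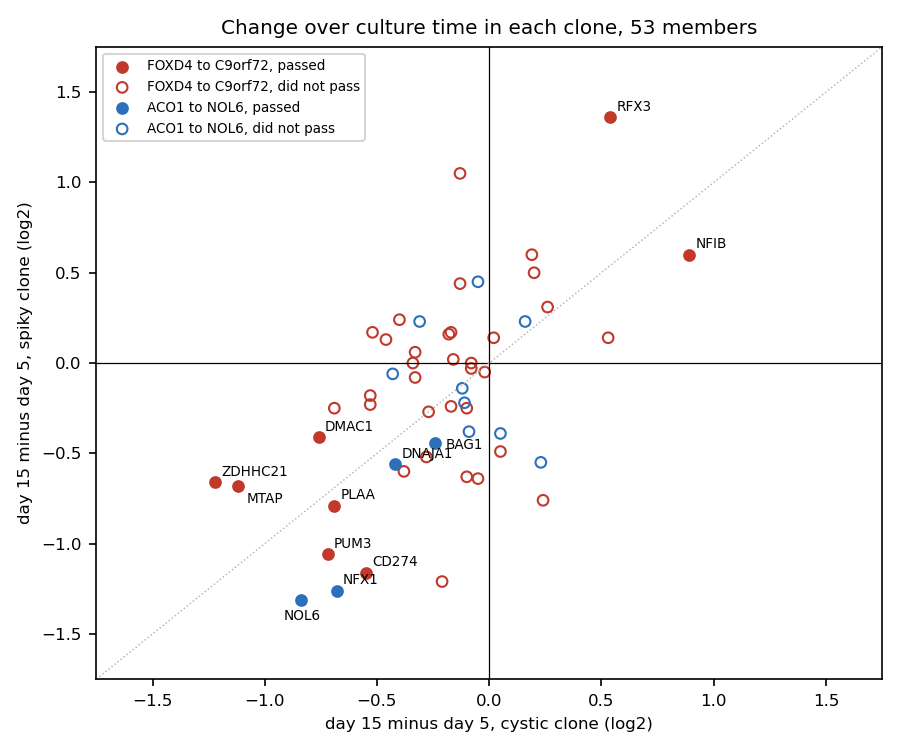
Change in log2 value, day 15 minus day 5, in the spiky clone (vertical) against the cystic clone (horizontal) for the 53 members; filled circles passed the limma test over both clones, open ones did not, and the dotted line marks equal change. RFX3 and NFIB lie at the upper right and the 10 members that fell at the lower left, NOL6 (-1.31 in spiky, -0.84 in cystic) lowest of all.

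The comparison of day 15 with day 10 shares its day 15 arrays with the one above. Against day 10, 1 member (NFIB, 0.38, adjusted p = 0.0395 by limma) was higher at day 15 and 8 were lower, beside 8.66% and 14% of all tested genes. The 8 were PUM3, ZDHHC21, HAUS6, MTAP, PLAA, DNAJA1, NFX1 and NOL6, from -0.93 for NOL6 to -0.57 for DNAJA1. Between day 10 and day 5, limma called 0 members, where 0.0162% of all tested genes were called. The smallest adjusted p among members was 0.243 by limma. At an unadjusted p under 0.05 lay 5 of the 53 members, beside 1658 of the 12317 tested genes. Whether the change after day 10 differs from that before it was not tested.

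Whether the gap between clones widened or narrowed was tested as a difference in slope per 10 days. Limma called 0 of 53 members, 0 of them at an unadjusted p under 0.05, and the called share was 0% of all tested genes too, with 309 of 12317 at an unadjusted p under 0.05. The highest slope differences were those of ACER2 (1.19 ± 0.67, SE), RFX3 (0.82 ± 0.55) and PLPP6 (0.69 ± 0.47), and the lowest those of KANK1 (-1.0 ± 0.49), CDC37L1 (-1.0 ± 0.49) and SMIM27 (-0.78 ± 0.47), each with an adjusted p of 0.999. ACER2 read 5.16, 4.90 and 6.21 on spiky arrays at day 5, 10 and 15, against 5.13, 4.86 and 5.00 on cystic arrays, so its gap rests on the day 15 spiky array. With 2 residual degrees of freedom a miss of the threshold does not show that the gaps stayed equal.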

How the data were processed

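Per the submitters' processing notes the deposited log2 values came from RMA, with no version, settings or genome build given in the sources used here. Of 54675 probe sets on the 6 arrays, 41097 had 1 gene symbol, 1801 several and 11777 none in the platform's table, and 41043 of the named ones matched RefSeq by gene ID, which gave symbols and gene order. Each of 19775 genes was represented by its brightest single-symbol probe set, and 12317 with a mean of at least log2 5 were tested. For 1 member (CAAP1) that probe set ends in _x_at and for 20 in _s_at, types that can detect related transcripts.

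One linear model per gene held colony shape and the culture day (3 levels) over the 6 arrays, fitted by limma 3.58.1 under R 4.3.3 with variances moderated along the intensity trend. All tests were two-sided, p-values were adjusted by Benjamini and Hochberg's method over all 12317 genes, the threshold was 0.05, and 2 residual degrees of freedom were left. A second model, in which numeric day interacted with shape, gave the slope difference per 10 days. The procedure was tested on data simulated with flat gene means, independent errors and added changes. Those data held no clone or day effects beyond the added changes and no links between genes. That test therefore does not cover such effects in the real arrays. The members, role lists and marker lists were chosen with earlier results of these data known. Samples were grouped by the labelled colony morphology and day. Named are the 15 highest and 10 lowest spiky minus cystic differences of 1 sign at all 3 days, the 6 highest and 6 lowest day 15 minus day 5 differences of 1 sign in both clones, the 3 highest and 3 lowest slope differences, up to 4 members per role list and the genes at the borders; other members are named to account for all, after their values were seen. Alternatives covered the level filter, the choice of probe set, array centring, cyclic loess, the variance prior, the model terms and leaving out each array. Tables and figures were made in Python 3.11.15 with pandas 2.3.3 and matplotlib 3.10.9.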

Additional observations from a re-analysis of the deposited data

How the results depend on the processing

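Of the spiky minus cystic values of single members under all alternatives, 664 of 780 kept their direction and their side of the threshold, 99 lost the call, 13 gained one and 4 reversed: SMARCA2 was at -0.24 with the mean of all bright probe sets, and MOB3B at -0.03 without both or either of the day 15 arrays (-0.03 to 0.23 without 1 array at a time). The count of 39 members called was 3 with culture day left out of the model. Without 1 array at a time it ran from 23 to 40, the lowest 2 values without the spiky and the cystic day 5 array (23 and 24); leaving out any array also removes its day from the contrast. The median of 0.71 was 0.79 with a mean of at least log2 6, 0.76 with the mean of all bright probe sets, 0.78 with arrays centred on their median, 0.77 with cyclic loess and 0.66 to 0.76 without 1 array at a time. With both day 15 arrays left out, a setting added after seeing the data, 40 were called. The split of 40 positive and 13 negative members held under both scalings, and was 39 positive and 1 negative in FOXD4 to C9orf72 with the mean of all bright probe sets and without day 15. Of all calls over the tested genes, 32.1% were higher in spiky colonies, against 47.8% with centring and 38.2% with cyclic loess.

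For day 15 minus day 5, 186 of 237 values were unchanged in direction and call, 47 lost and 3 gained the call, and 1 reversed: DMAC1 was at 0.01 with the mean of all bright probe sets. The 12 calls became 0 with colony shape left out, 7 with day as a number and 2 to 18 without 1 array at a time, the extremes without the spiky day 5 and the cystic day 15 array. The median of -0.17 was -0.13 with the mean of all bright probe sets, -0.05 with centring, -0.05 with cyclic loess and -0.21 to -0.15 without 1 array at a time. Centring moved the median of all tested genes from -0.11 to 0.02, and the share of higher calls, 32.3%, became 48.9% with centring and 51.9% with cyclic loess, so directions over time are relative to the array scale. The slope difference gave 0 calls among the members under every alternative run, and over all tested genes 33 without the spiky day 5 array and 1 without the spiky day 10 array. The cause of these changes was not tested. Signal near background limits the 70 genes under log2 5. The arrays of both clones pair by day, and day as a factor is that block; the fit without it is the one with culture day left out.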

Other observations

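CDKN2A and the interferon genes of the stretch gave little signal. CDKN2A read 4.62, 4.41 and 4.03 on spiky arrays at day 5, 10 and 15, against 4.83, 4.50 and 4.79 on cystic arrays, all under log2 5. The 15 interferon genes with a probe set of their own had means from 2.40 to 3.79, and their highest single value was 4.09. Whether such dim genes share the shift of their bright neighbours was not measurable here.

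Probe sets shared by the ZNG1 family, one of whose copies lies near FOXD4, had spiky minus cystic differences of -0.00, 0.14 and 0.14, and the family's other copies lie elsewhere.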
